A study of Mus musculus with 22 samples.

Results

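Ribosome biogenesis factors were examined as a set of 39 named genes, chosen by symbol from the 13594 genes of the deposited expression table, and all 39 were found and tested. The RNA came from mouse haematopoietic stem cells (HSCs) in the KSL CD48- CD150+ gate, which keeps Kit+ Sca-1+ cells without lineage markers. Donors had Cd53 knocked out (KO) or were wild-type littermates (WT), and received saline or 7 days of granulocyte colony-stimulating factor (G-CSF), a cytokine that drives granulocyte output and moves stem cells from marrow to spleen and blood. The groups were WT saline marrow with 4 libraries, WT G-CSF marrow with 3, KO saline marrow with 3, KO G-CSF marrow with 4, WT G-CSF spleen with 4 and KO G-CSF spleen with 4, or 22 libraries in all. Spleen after saline was not analysed here, so any contrast of mobilised spleen with resting marrow changes tissue and treatment together. Age, sex, strain, the nature of the Cd53 allele and whether libraries of different tissues came from the same animals are not given in the sources used here, and p-values therefore measure only the spread between libraries.

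Ribosomes are built in the nucleolus, where RNA polymerase I (Pol I) transcribes a long precursor of ribosomal RNA that is then modified by small nucleolar ribonucleoproteins (snoRNPs), folded by helicases, cut, and packed with ribosomal proteins into a small and a large subunit. The factors that do this work do not stay in the finished ribosome. Their transcripts are known to be raised in growing cells, and the transcription factor Myc is known to bind and induce many of their genes. Resting HSCs are known for low protein synthesis, and G-CSF is known to push them towards cycling and mobilisation.

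In WT marrow 7 days of G-CSF raised 12 of the 39 factors and lowered 0, by 1.23- to 1.67-fold, beside 5.62% of all genes that rose, and leaving out 1 library gave 4 to 13 factors. They included the rRNA helicase gene Ddx21, the large-subunit processing genes Bop1 and Pes1, and the small-subunit assembly genes Bysl and Rrp12. In KO marrow 1 factor was higher and 1 lower after the same treatment, beside 5.57% and 4.3% of all genes. The difference between the responses of the genotypes passed for 0 factors and 0.0% of all genes. In WT spleen after G-CSF, 12 factors were higher than in resting WT marrow, beside 11.7% of all genes, with the largest difference for Pes1 (2.01-fold). In that spleen 6 factors were lower than in WT G-CSF marrow, beside 6.82% of all genes, with the largest difference for Bysl. When same-numbered libraries were treated as pairs, only Ddx21, Bop1 and Bysl of these passed. Between KO and WT limma called 0 factors in saline marrow, G-CSF marrow and spleen, beside 0.00736%, 0.147% and 0.0147% of all genes. Pes1 and Nop16 were lower in KO spleen with sample weights, added after the data were seen, and in the authors' deposited table. Both of these rest on the same spleen libraries as the main fit, and their shares over all genes are not given here.

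Depth and identity of the libraries were as follows. Reads in the listed genes numbered 22578088 to 31268856 per library, so that 1 read was worth 0.0306 to 0.0465 CPM (reads per 1000000 of the effective library size), and the fewest reads of any factor in any library were 50, for Fbl. Cd53 lay at 5.92 ± 0.18 (SD, n = 4) log2 CPM in WT and 3.07 ± 0.91 (SD, n = 3) in KO saline marrow, at 9.73 ± 0.15 (SD, n = 3) and 6.32 ± 0.22 (SD, n = 4) in G-CSF marrow, and at 9.63 ± 0.11 (SD, n = 4) and 6.30 ± 0.10 (SD, n = 4) in spleen, lower in each KO library than in each WT library of its setting. All 12 HSC markers were present, and Kit lay between 8.99 and 10.69 log2 CPM in the 22 libraries. Group means of gate genes follow for saline marrow, G-CSF marrow and spleen, in WT and then KO. Kit was lower after G-CSF, at 10.38, 9.91 and 9.36, then 10.39, 9.999 and 9.82. Cd48, whose product the gate excludes, was higher after G-CSF, at 2.07, 3.85 and 4.23, then 2.25, 4.04 and 4.11. Ly6a, which encodes Sca-1, was also higher, at 7.25, 8.41 and 8.58, then 7.56, 8.11 and 8.36. Slamf1, which encodes CD150, read 5.40, 5.20 and 5.74, then 5.83, 5.58 and 5.89. With G-CSF in marrow 4 of the 12 HSC markers fell in each genotype, beside 5.62% of all genes lowered in WT and 4.3% in KO. The summed level of the HSC markers was 5106 to 5431 CPM in WT saline and 4260 to 4682 in WT G-CSF marrow, 5040 to 5500 and 4029 to 5139 in KO marrow, and 3910 to 4327 and 3777 to 4608 in WT and KO spleen. Summed multipotent progenitor markers (7 of 7 in the table) ran from 1243 to 1515 CPM in WT and 1244 to 1525 in KO saline marrow, 3094 to 3264 and 2864 to 3663 in G-CSF marrow, and 1679 to 2361 and 2010 to 2512 in spleen. Summed granulocyte markers (8 of 10 in the table) lay at 213 to 403 and 189 to 265 CPM in WT and KO saline marrow against 499 to 673 and 391 to 720 in G-CSF marrow and 339 to 435 and 389 to 464 in spleen. Summed T and NK cell markers (3 of 9 tested) lay at 85 to 116 and 96.5 to 114 CPM in WT and KO saline marrow, 156 to 168 and 149 to 199 in G-CSF marrow and 195 to 219 and 169 to 205 in spleen. Summed macrophage markers (7 of 9 tested) lay at 309 to 371 and 349 to 421 CPM, 347 to 412 and 336 to 407, and 493.1 to 527 and 419 to 455 in the same order. Summed erythroid markers (6 of 11 in the table) lay at 4868 to 5935 and 5470 to 5743 CPM in WT and KO saline marrow. They lay at 4210 to 4415 and 4274 to 5403 in G-CSF marrow and 4599 to 5039 and 3867 to 4931 in spleen. Summed megakaryocyte markers (6 of 8 in the table) lay at 208 to 258 and 226 to 296 CPM in WT and KO saline marrow. In G-CSF marrow these were 274 to 313 and 179 to 274, and in spleen 197 to 216 and 184 to 240. Summed B cell markers (2 of 8 in the table) lay at 108 to 131 and 127 to 144 CPM in saline marrow. In G-CSF marrow these were 101 to 130 and 101 to 148, and in spleen 119 to 154 and 103 to 135. The part of such shifts in cell makeup in the results below was not tested, and in bulk libraries more cells of a type cannot be told apart from more RNA per cell.

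Levels within the set spanned a wide range. Averaged over the libraries and set per kilobase of coding length, Npm1 (nucleophosmin, a nucleolar chaperone) was highest at 754 CPM, followed by Nop16 at 418, Ncl (nucleolin, an RNA-binding nucleolar protein) at 377 and Nop56 at 366. The median factor had 63.4 CPM per kilobase. Lowest were Fbl at 4.3, Utp20 at 5.8, Rrs1 at 6.36 and Gar1 at 7.29 CPM per kilobase. Fbl encodes fibrillarin, the methyltransferase of the same box C/D snoRNP whose scaffold proteins come from Nop56 and Nop58, the latter at 208 CPM per kilobase. Of the 39 factors 34 lay above 5 log2 CPM on average, and the low group of Fbl, Gar1 and Rrs1, with 50 to 412 reads per library, had the largest standard errors for G-CSF in WT marrow. How reads that map to several places were counted is not given in the sources used here, so these low values may not be the level of the transcripts.

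**Figure D1:**
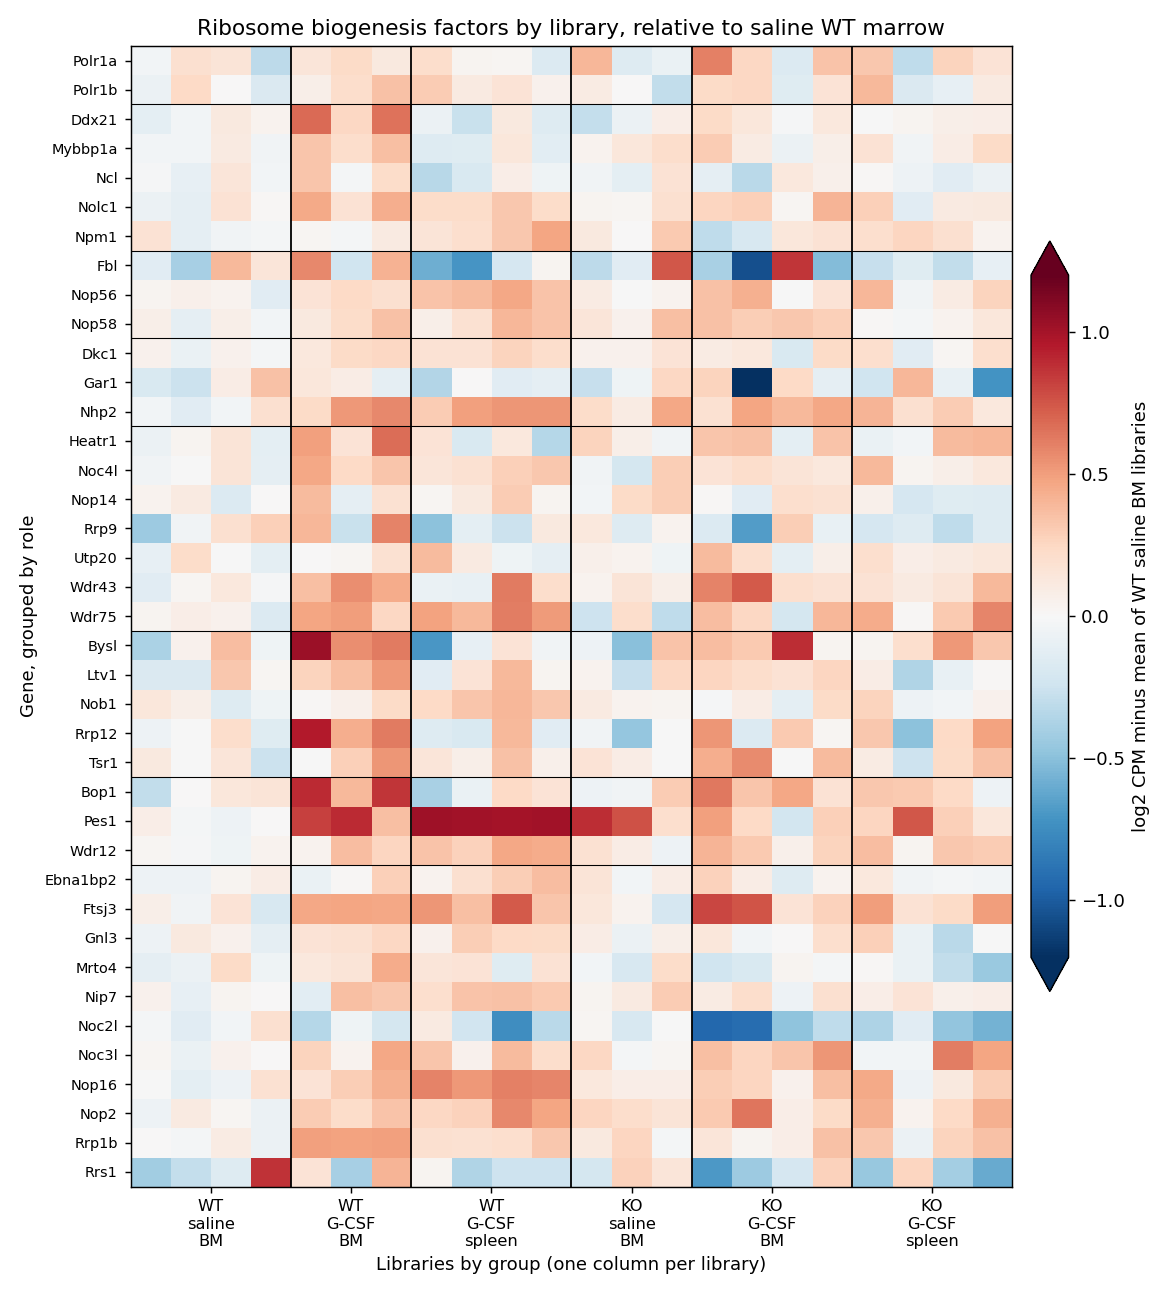
Heat map of the 39 factors (rows) in the 22 libraries (columns, by group), where colour is the log2 CPM of a library minus the factor's mean over the WT saline marrow libraries. The 3 WT G-CSF marrow columns are raised for most factors, and Pes1 stands out in WT spleen and in KO saline marrow.

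The first comparison asked how 7 days of G-CSF changed the factors in WT marrow HSCs. Of the 39 factors 12 rose and 0 fell at a Benjamini-Hochberg adjusted p under 0.05 over all 13586 genes tested with limma, beside 5.62% of all genes that rose. The log2 fold change was above 0 for 38 of 39, with a median of 0.25 against -0.01 over all genes, and 20 factors had an unadjusted p under 0.05. Over all 13586 genes 3283 had such a p. The mean of the 39 factors lay at 6.54 to 6.68 log2 CPM in the 4 saline libraries and at 6.81 to 6.96 in the 3 G-CSF libraries. The count was 4 to 7 when any library other than saline replicate 3 was left out, and 13 without that library. Scaled to the sum of the listed genes, which moved the median of all genes by -0.08, 5 of the 12 (Bop1, Ddx21, Nhp2, Pes1 and Rrp1b) were past the threshold.

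**Figure D2:**
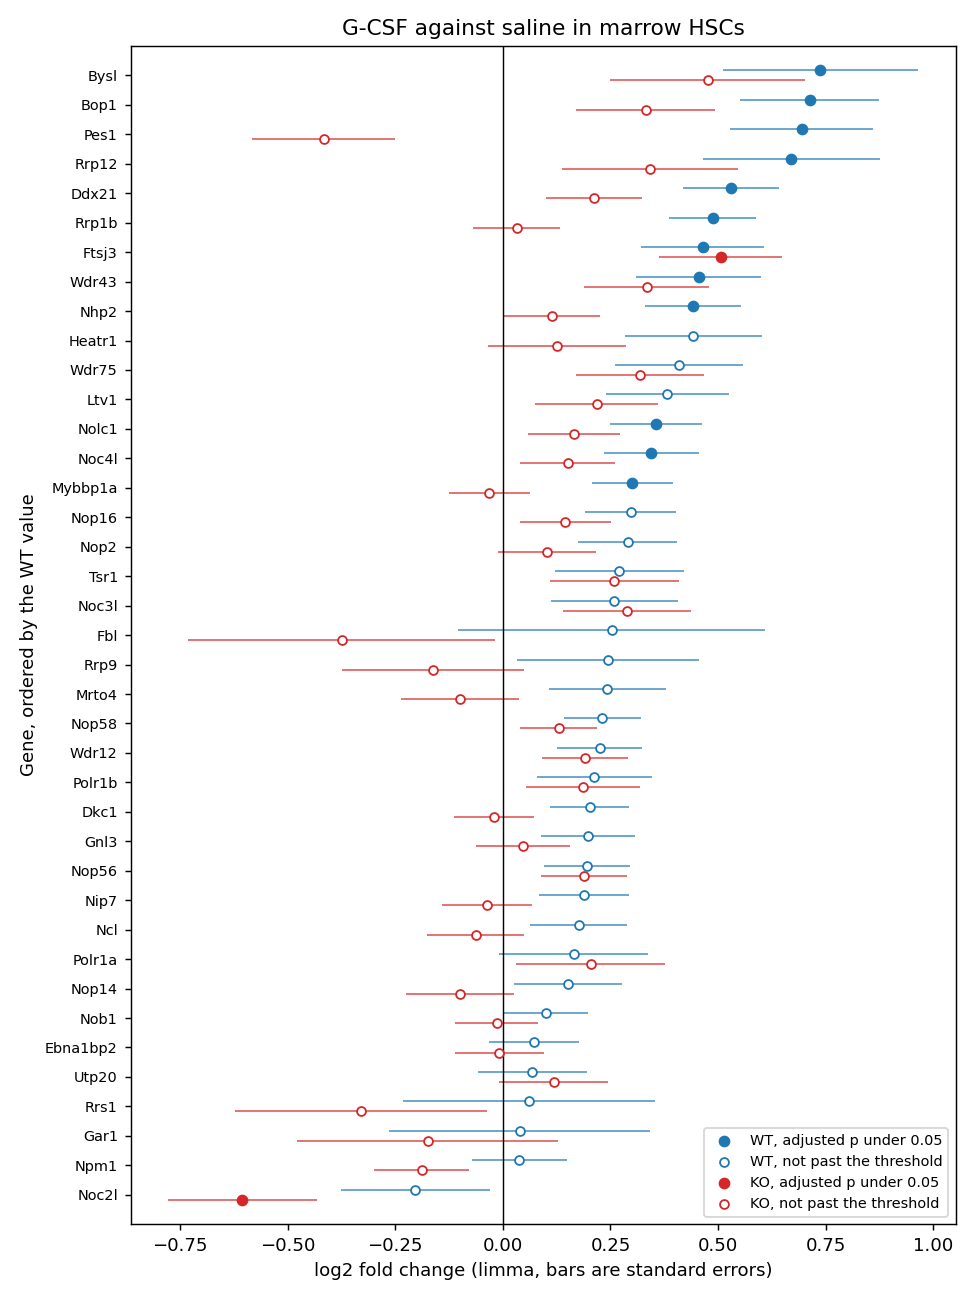
Log2 fold change of each of the 39 factors after G-CSF against saline in marrow, for WT (blue) and KO (red), with standard errors as bars and filled points for an adjusted p under 0.05. In WT 12 points are filled, all to the right of 0, and in KO 2 are, Ftsj3 to the right and Noc2l to the left.

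The upstream sequences of 6 genes are shown, Nop2 as the one factor with an E-box and the others because the results below turn on them, with motif matches in capitals: the E-box CACGTG, which Myc with Max is known to bind, and CCGGAA or its reverse complement TTCCGG, a core that ETS family factors are known to bind. Each is the 250 bases before the RefSeq transcription start (build GRCm38.p6), read on the gene's strand. The regions are chr6:125131633-125131882 (plus strand) for Nop2, chr11:51619523-51619772 (plus) for Nhp2, chr17:47611493-47611742 (minus) for Bysl, chr11:106256085-106256334 (minus) for Ftsj3, chr10:62602299-62602548 (minus) for Ddx21 and chr11:3963725-3963974 (plus) for Pes1.
Nop2: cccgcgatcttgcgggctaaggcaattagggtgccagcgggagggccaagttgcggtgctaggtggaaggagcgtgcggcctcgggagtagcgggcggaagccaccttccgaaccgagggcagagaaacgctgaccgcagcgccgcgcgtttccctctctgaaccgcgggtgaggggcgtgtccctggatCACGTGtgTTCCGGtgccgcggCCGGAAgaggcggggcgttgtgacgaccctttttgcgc
Nhp2: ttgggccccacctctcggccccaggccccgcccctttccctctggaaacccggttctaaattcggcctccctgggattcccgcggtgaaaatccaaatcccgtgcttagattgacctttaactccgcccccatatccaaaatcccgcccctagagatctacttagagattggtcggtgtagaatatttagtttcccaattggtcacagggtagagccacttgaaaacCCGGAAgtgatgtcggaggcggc
Bysl: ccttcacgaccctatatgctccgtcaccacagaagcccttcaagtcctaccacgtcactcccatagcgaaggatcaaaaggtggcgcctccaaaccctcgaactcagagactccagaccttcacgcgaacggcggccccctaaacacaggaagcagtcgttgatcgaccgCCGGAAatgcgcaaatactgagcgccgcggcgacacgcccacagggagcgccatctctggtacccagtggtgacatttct
Ftsj3: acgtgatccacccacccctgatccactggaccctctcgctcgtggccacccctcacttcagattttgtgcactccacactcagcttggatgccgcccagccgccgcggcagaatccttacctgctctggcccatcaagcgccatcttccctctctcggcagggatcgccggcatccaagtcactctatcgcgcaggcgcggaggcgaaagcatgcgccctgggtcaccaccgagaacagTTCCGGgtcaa
Ddx21: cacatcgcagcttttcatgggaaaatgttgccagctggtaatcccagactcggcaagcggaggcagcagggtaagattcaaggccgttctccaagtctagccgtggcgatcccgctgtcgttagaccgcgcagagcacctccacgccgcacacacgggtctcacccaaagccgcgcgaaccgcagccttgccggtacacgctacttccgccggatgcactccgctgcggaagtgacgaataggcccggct
Pes1: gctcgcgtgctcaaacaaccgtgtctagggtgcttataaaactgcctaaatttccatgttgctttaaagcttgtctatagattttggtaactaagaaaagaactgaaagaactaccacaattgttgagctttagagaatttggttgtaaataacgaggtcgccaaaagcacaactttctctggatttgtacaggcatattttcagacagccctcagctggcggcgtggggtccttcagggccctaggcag
Nop2 held an E-box that starts 60 bases before the start and ETS cores at 52 and 38 bases. Nhp2, Bysl and Ftsj3 each held an ETS core, at 23, 80 and 11 bases before the start, and Ddx21 and Pes1 held neither motif. Of the 34 factors with an upstream sequence, 13 held an ETS core on either strand (38.2%), beside 25.3% of the 10291 genes of the expression table with such a sequence. The E-box, which reads the same on both strands and overlapped no ETS core in Nop2, was found in 1 of the 34 (2.94%) beside 9.83% of those genes. CCAAT or ATTGG was in 26.5% against 40.3%, GGGCGG or CCGCCC in 67.6% against 62.7%, and TATAAA or TTTATA in 5.88% against 7.74%. These are matches of letters in this window and not measured binding.

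The counts per role below cover few genes each, and differences between roles were not tested. Among the Pol I subunits neither gene passed in any of the comparisons. Polr1b, the second-largest subunit, had 7.05, 7.37, 7.13 and 6.96 log2 CPM in the WT saline marrow libraries and 7.20, 7.34 and 7.48 in the WT G-CSF marrow libraries, and these ranges overlapped. The log2 fold change of Polr1b was 0.21 ± 0.13 (adjusted p = 0.352), and that of Polr1a, the largest subunit, 0.16 ± 0.17 (adjusted p = 0.612). Each error after a log2 fold change is the standard error of the limma fit.

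Of the nucleolar helicases, chaperones and scaffolds 3 of 5 rose with G-CSF in WT marrow, beside 5.62% of all genes. Ddx21 (ENSMUSG00000020075, mm10 chromosome 10, 62580251 to 62602281, minus strand), a DEAD-box helicase that acts on the rRNA precursor, read 6.86, 6.94, 7.09 and 7.01 log2 CPM in WT saline marrow, 7.66, 7.23 and 7.63 in WT G-CSF marrow and 6.90, 6.71, 7.09 and 6.82 in WT spleen. Its KO values were 6.69, 6.90 and 7.05 in saline marrow, 7.20, 7.11, 6.95 and 7.10 in G-CSF marrow and 6.97, 7.01, 7.04 and 7.06 in spleen. The 3 WT G-CSF marrow libraries were the highest of all 22. Its log2 fold change in WT marrow was 0.53 ± 0.11 (adjusted p = 0.00283), and it passed when any 1 of the 7 libraries was left out. In KO marrow it was 0.21 ± 0.11 (adjusted p = 0.254). Mybbp1a, a Myb-binding nucleolar protein, read 8.34, 8.33, 8.47 and 8.33 in WT saline marrow, 8.70, 8.58 and 8.73 in WT G-CSF marrow and 8.21, 8.22, 8.50 and 8.24 in WT spleen, with no overlap between the marrow groups. In KO it read 8.41, 8.51 and 8.58 in saline marrow, 8.67, 8.46, 8.29 and 8.44 in G-CSF marrow and 8.54, 8.32, 8.45 and 8.59 in spleen. Its log2 fold change was 0.30 ± 0.09 (adjusted p = 0.0403) in WT marrow and -0.03 ± 0.09 (adjusted p = 0.882) in KO marrow. Nolc1, a scaffold protein of snoRNPs, rose by 0.36 ± 0.11 (adjusted p = 0.0326), and the WT calls of Mybbp1a and Nolc1 each held in 2 of 7 omissions. Npm1, with 9.43, 9.15, 9.21 and 9.23 in WT saline and 9.28, 9.24 and 9.37 in WT G-CSF marrow, showed overlapping groups and the smallest absolute fold change of the set, 0.04 ± 0.11 (adjusted p = 0.876), and Ncl had 0.18 ± 0.11 (adjusted p = 0.361).

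The products of the box C/D snoRNP genes add methyl groups to rRNA. With G-CSF in WT marrow 0 of these 3 genes passed, beside 11.2% of all genes. Nop58 read 8.28, 8.10, 8.28 and 8.18 log2 CPM in WT saline marrow, 8.33, 8.43 and 8.56 in WT G-CSF marrow and 8.28, 8.39, 8.61 and 8.55 in WT spleen. The marrow groups did not overlap, and the log2 fold change was 0.23 ± 0.09 (adjusted p = 0.105). Nop56 read 9.16, 9.18, 9.17 and 8.99 in WT saline marrow, 9.29, 9.37 and 9.32 in WT G-CSF marrow and 9.47, 9.51, 9.59 and 9.47 in WT spleen, 3 groups that did not overlap. Against resting marrow, Nop56 in WT spleen was higher by 0.38 ± 0.09 (adjusted p = 0.0056) and Nop58 by 0.25 ± 0.08 (adjusted p = 0.0376). Fbl had 1.4 to 2.68 log2 CPM in the WT libraries, with overlapping groups and a fold change of 0.25 ± 0.36 (adjusted p = 0.719) in WT marrow. Of the box H/ACA snoRNP genes, whose products convert uridines of rRNA to pseudouridine, 1 of 3 rose, beside 5.62% of all genes. Nhp2 (ENSMUSG00000001056, mm10 chromosome 11, 51619735 to 51623714, plus strand), a core protein, read 7.01, 6.91, 7.02 and 7.24 in WT saline marrow, 7.28, 7.56 and 7.62 in WT G-CSF marrow and 7.34, 7.54, 7.58 and 7.57 in WT spleen. Each of the 7 WT G-CSF libraries lay above each of the 4 saline libraries. The log2 fold change was 0.44 ± 0.11 (adjusted p = 0.0113) in marrow and 0.46 ± 0.10 (adjusted p = 0.00296) for spleen against resting marrow. KO libraries had 7.27, 7.14 and 7.51 in saline marrow, 7.23, 7.51, 7.43 and 7.51 in G-CSF marrow and 7.45, 7.24, 7.34 and 7.17 in spleen, groups that overlapped, and the marrow change was 0.11 ± 0.11 (adjusted p = 0.578). Dkc1, the pseudouridine synthase, had 0.20 ± 0.09 (adjusted p = 0.181) in WT marrow. Gar1, another core protein, read 2.21, 2.13, 2.48 and 2.74 in WT saline and 2.53, 2.48 and 2.28 in WT G-CSF marrow, overlapping, and its change was 0.04 ± 0.30 (adjusted p = 0.955), a value whose sign turned with the scaling and with single libraries.

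The small-subunit processome assembles on the rRNA precursor while it is transcribed. Of its 7 genes 2 rose in WT marrow, beside 5.62% of all genes. Wdr43, a WD-repeat protein of its first module, read 8.14, 8.30, 8.40 and 8.26 log2 CPM in WT saline marrow, 8.64, 8.84 and 8.72 in WT G-CSF marrow and 8.20, 8.19, 8.89 and 8.48 in WT spleen. The marrow groups did not overlap and the spleen group overlapped both. Its log2 fold change was 0.45 ± 0.14 (adjusted p = 0.0439), and Noc4l had 0.34 ± 0.11 (adjusted p = 0.0453). Each of these calls held in 1 of 7 omissions of a library. Wdr75, of the same module as Wdr43, read 6.47, 6.52, 6.49 and 6.28 in WT saline marrow, 6.92, 6.95 and 6.69 in WT G-CSF marrow and 6.92, 6.83, 7.05 and 6.95 in WT spleen. The marrow change of Wdr75 was 0.41 ± 0.15 (adjusted p = 0.0808), and WT spleen exceeded resting marrow by 0.50 ± 0.14 (adjusted p = 0.0127). Heatr1, also of that module, had 0.44 ± 0.16 (adjusted p = 0.0789) in WT marrow with no overlap. The other 3, Utp20, Rrp9 and Nop14, had log2 fold changes of 0.07 ± 0.13, 0.24 ± 0.21 and 0.15 ± 0.12 with overlapping groups.

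Late small-subunit assembly takes the precursor to the cytoplasm, and 2 of its 5 genes rose, beside 5.62% of all genes. Bysl (ENSMUSG00000023988, mm10 chromosome 17, 47599331 to 47611492, minus strand), which encodes bystin, read 4.27, 4.70, 5.02 and 4.60 log2 CPM in WT saline marrow, 5.67, 5.21 and 5.27 in WT G-CSF marrow and 3.95, 4.55, 4.81 and 4.61 in WT spleen. In KO it read 4.59, 4.15 and 4.99 in saline marrow, 5.02, 4.96, 5.54 and 4.68 in G-CSF marrow and 4.68, 4.85, 5.17 and 4.97 in spleen. The WT G-CSF marrow group lay above both other WT groups. Its change in WT marrow was the largest of the set, 0.74 ± 0.23 (adjusted p = 0.0375), or 1.67-fold, and the call held in 1 of 7 omissions. Rrp12, a HEAT-repeat protein needed for export of pre-ribosomes in yeast, read 5.59, 5.64, 5.87 and 5.51 in WT saline marrow, 6.60, 6.08 and 6.28 in WT G-CSF marrow and 5.50, 5.47, 6.04 and 5.51 in WT spleen. Its KO values were 5.61, 5.19 and 5.65 in saline marrow, 6.18, 5.48, 5.97 and 5.67 in G-CSF marrow and 5.97, 5.16, 5.89 and 6.13 in spleen, and these groups overlapped. Its change in WT marrow was 0.67 ± 0.21 (adjusted p = 0.0366), held in 2 of 7 omissions. Ltv1, Tsr1 and Nob1, the endonuclease that makes the final cut of the small-subunit rRNA, had 0.38 ± 0.14, 0.27 ± 0.15 and 0.10 ± 0.10, with overlapping groups.

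**Figure D3:**
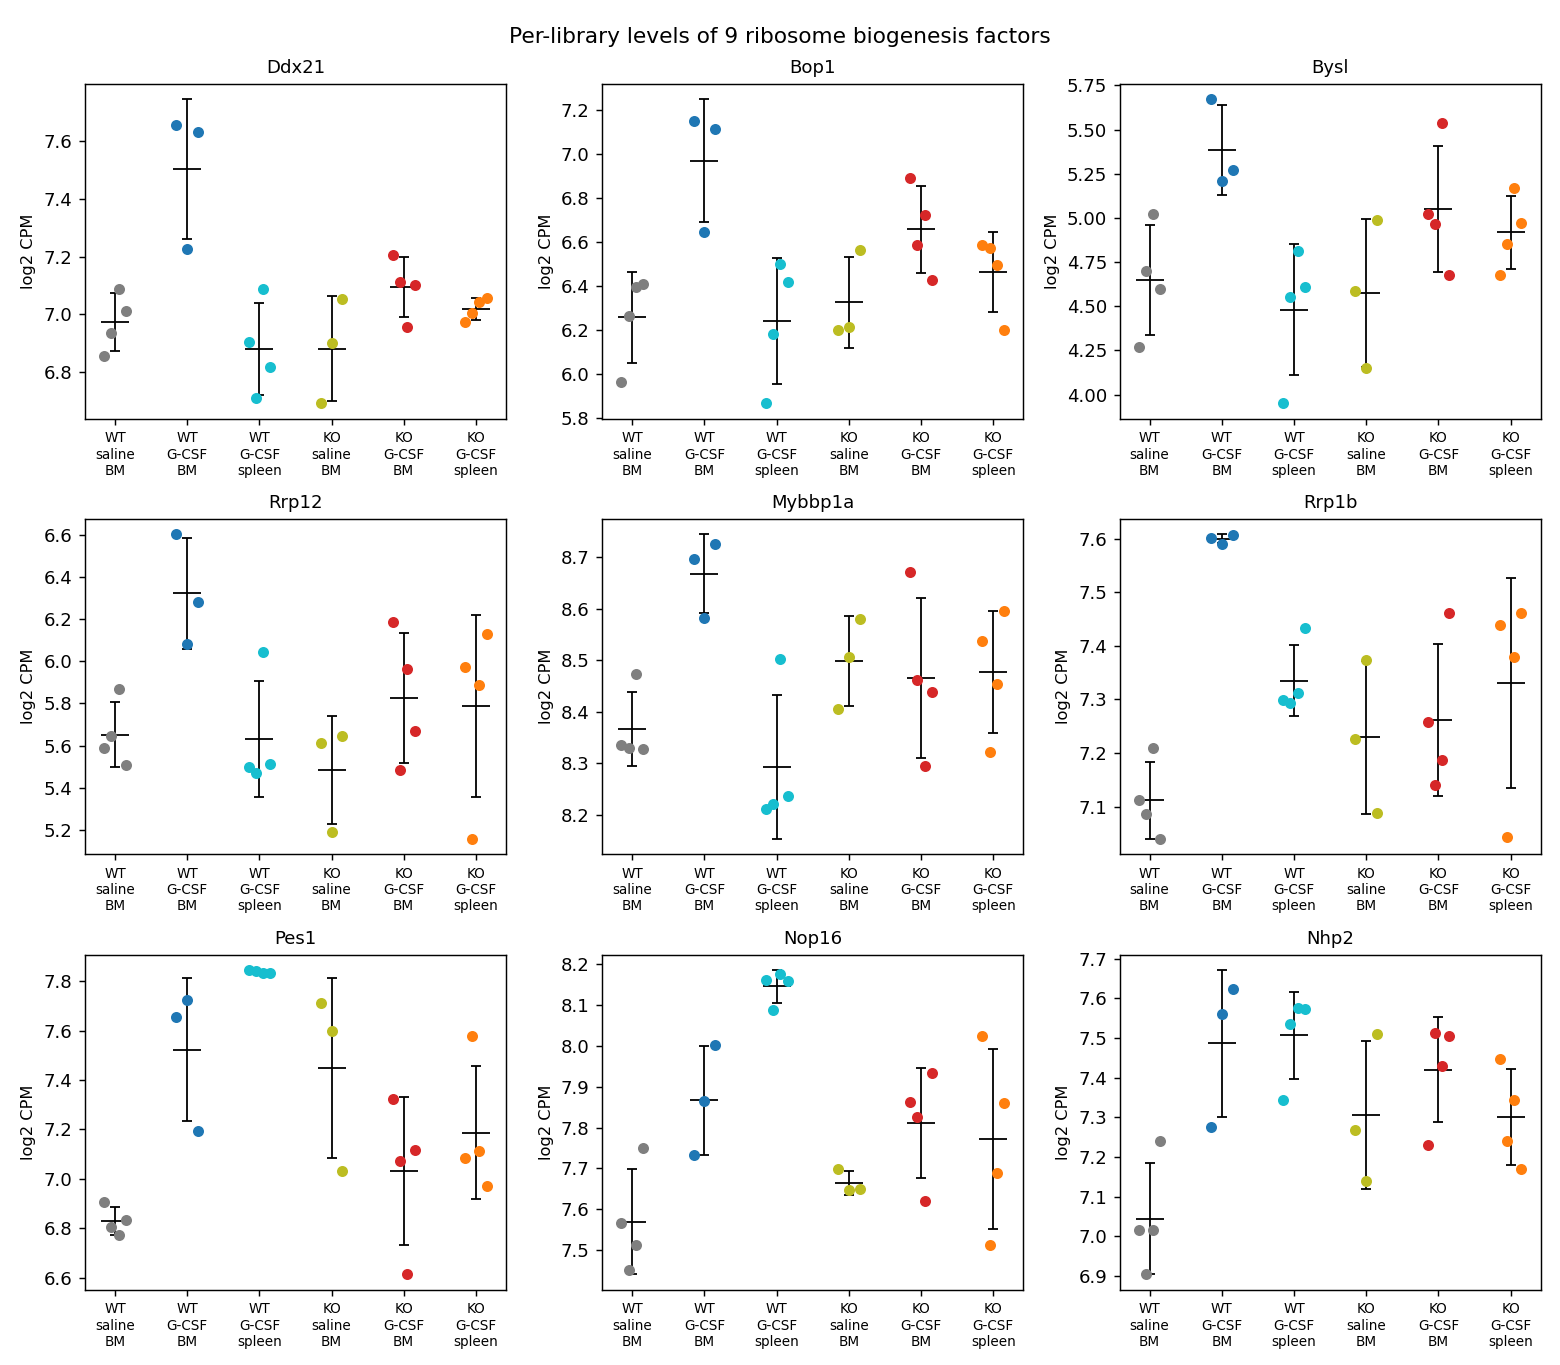
Log2 CPM of 9 named factors in each library (points), by group, with the mean and SD of the group as the line and bar. The WT G-CSF marrow points of Ddx21, Bop1, Bysl and Rrp12 lie above both other WT groups, and the 4 WT spleen points of Pes1 lie at 7.83 to 7.85.

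The PeBoW complex of Pes1, Bop1 and Wdr12 acts in the processing of large-subunit rRNA. Of its 3 genes 2 rose in WT marrow, beside 5.62% of all genes. Pes1 (ENSMUSG00000020430, mm10 chromosome 11, 3963975 to 3980004, plus strand) read 6.91, 6.81, 6.77 and 6.84 log2 CPM in WT saline marrow, 7.65, 7.72 and 7.19 in WT G-CSF marrow and 7.85, 7.84, 7.83 and 7.84 in WT spleen. In KO it read 7.71, 7.60 and 7.03 in saline marrow, 7.32, 7.07, 6.61 and 7.12 in G-CSF marrow and 7.08, 7.58, 7.11 and 6.97 in spleen. In WT the 3 groups did not overlap, with saline lowest and spleen highest, while in KO saline marrow held the highest library. The WT marrow change was 0.69 ± 0.17 (adjusted p = 0.00823), held in 6 of 7 omissions, and in KO it was -0.42 ± 0.17 (adjusted p = 0.119). Bop1 (ENSMUSG00000022557, mm10 chromosome 15, 76452989 to 76477277, minus strand) read 5.96, 6.26, 6.40 and 6.41 in WT saline marrow, 7.15, 6.65 and 7.11 in WT G-CSF marrow and 5.86, 6.18, 6.50 and 6.42 in WT spleen. KO libraries had 6.20, 6.21 and 6.57 in saline marrow, 6.89, 6.59, 6.72 and 6.43 in G-CSF marrow and 6.59, 6.57, 6.50 and 6.20 in spleen. The WT G-CSF marrow group lay above both other WT groups, and in KO the groups overlapped. Its change was 0.71 ± 0.16 (adjusted p = 0.00531) in WT marrow, held in each of the 7 omissions, and 0.33 ± 0.16 (adjusted p = 0.214) in KO marrow. Wdr12 read 7.73, 7.70, 7.67 and 7.76 in WT saline marrow, 7.76, 8.08 and 7.97 in WT G-CSF marrow and 8.06, 7.99, 8.17 and 8.16 in WT spleen, with a marrow change of 0.22 ± 0.10 (adjusted p = 0.164).

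Of the 11 large-subunit assembly genes 2 rose in WT marrow, beside 5.62% of all genes. Rrp1b (ENSMUSG00000058392, mm10 chromosome 17, 32036100 to 32062865, plus strand), a nucleolar protein of large-subunit maturation, read 7.11, 7.09, 7.21 and 7.04 log2 CPM in WT saline marrow, 7.60, 7.59 and 7.61 in WT G-CSF marrow and 7.30, 7.29, 7.31 and 7.43 in WT spleen. In KO it read 7.23, 7.37 and 7.09 in saline marrow, 7.26, 7.14, 7.19 and 7.46 in G-CSF marrow and 7.44, 7.04, 7.38 and 7.46 in spleen. The WT groups did not overlap, and the KO groups did. Its change in WT marrow was 0.49 ± 0.10 (adjusted p = 0.00243), the smallest p of the set, and in KO 0.03 ± 0.10 (adjusted p = 0.888). Ftsj3, an rRNA methyltransferase, read 7.20, 7.09, 7.29 and 6.94 in WT saline marrow, 7.59, 7.60 and 7.59 in WT G-CSF marrow and 7.66, 7.49, 7.87 and 7.46 in WT spleen. Its KO values were 7.26, 7.17 and 6.93 in saline marrow, 7.93, 7.88, 7.29 and 7.40 in G-CSF marrow and 7.63, 7.30, 7.35 and 7.63 in spleen. Saline libraries were below all G-CSF libraries of the same genotype, and Ftsj3 rose in marrow of both genotypes, by 0.46 ± 0.14 (adjusted p = 0.0379) in WT and 0.51 ± 0.14 (adjusted p = 0.0257) in KO. The calls held in 1 of 7 omissions in WT and 3 of 7 in KO. Noc2l read 5.58, 5.47, 5.57 and 5.79 in WT saline and 5.26, 5.55 and 5.39 in WT G-CSF marrow, which overlapped, against 5.62, 5.41 and 5.60 in KO saline and 4.66, 4.69, 5.12 and 5.30 in KO G-CSF marrow, which did not. It fell in KO marrow, with a log2 fold change of -0.61 ± 0.17 (adjusted p = 0.027), and its WT value was -0.20 ± 0.17 (adjusted p = 0.518), the only value below 0 in that comparison. Nop16 read 7.57, 7.45, 7.51 and 7.75 in WT saline marrow, 7.73, 7.86 and 8.0 in WT G-CSF marrow and 8.16, 8.09, 8.18 and 8.16 in WT spleen, and its marrow change was 0.30 ± 0.11 (adjusted p = 0.0733). Rrs1, with 2.45, 2.58, 2.71 and 3.73 in WT saline and 3.04, 2.48 and 3.28 in WT G-CSF marrow, overlapped widely, at 0.06 ± 0.29 (adjusted p = 0.928). The other 6, Nop2, Gnl3, Noc3l, Mrto4, Ebna1bp2 and Nip7, had changes of 0.07 ± 0.10 (Ebna1bp2) to 0.29 ± 0.11 (Nop2, another rRNA methyltransferase).

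The same treatment in KO marrow raised Ftsj3 and lowered Noc2l among the 39 factors, beside 9.87% of all genes called, 5.57% raised and 4.3% lowered. Both calls rest on few libraries. Without KO G-CSF replicate 1 or replicate 2, 0 factors passed, and 0 did when the fit used these groups alone. Only Ftsj3 passed without KO saline replicate 1 and only Noc2l without replicate 2, while without replicate 3 neither did and Pes1 was called lower. Without KO G-CSF replicate 3, Wdr75 passed as well, for 3 in all. The median log2 fold change was 0.12, 24 of 39 values were above 0, and 6 had an unadjusted p under 0.05. Over all 13586 genes 3248 had such a p. The mean of the 39 factors was 6.61 to 6.72 log2 CPM in KO saline and 6.68 to 6.79 in KO G-CSF marrow, and these ranges overlapped. The difference between the genotypes was tested as the interaction of genotype and G-CSF. Limma called 0 of the 39 factors and 0.0% of all genes, and voom and sample weights also called 0 factors. An unadjusted p under 0.05 was found for 4 factors, beside 971 of 13586 genes. The interaction (the KO response minus the WT response) was above 0 for 4 of 39 factors, with a median of -0.21. Pes1 had the largest, -1.11 ± 0.24 (unadjusted p = 9.91e-05, adjusted p = 0.26), which passed at adjusted p = 0.0323 without KO saline replicate 3. Rrp1b had -0.45 ± 0.14 (adjusted p = 0.488) and Mybbp1a -0.33 ± 0.13 (adjusted p = 0.643). A larger response in WT than in KO was not shown for any single factor in the full data.

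WT spleen HSCs after G-CSF were next set against resting WT marrow. Here 12 factors were higher and 0 lower, beside 21.1% of all genes called, 11.7% higher and 9.4% lower, with a median of 0.17 against -0.04 over all genes and 27 of 39 above 0. Pes1 rose most, by 1.01 ± 0.15 (adjusted p = 7.04e-05), or 2.01-fold, and Nop16 by 0.58 ± 0.10 (adjusted p = 0.000227), its 4 spleen libraries lying above all 4 saline libraries. Next by smallest p came Nhp2, Wdr12, which rose by 0.38 ± 0.09 (adjusted p = 0.00534), and Nop56, and the other 7 were Nob1, Nip7, Nop58, Npm1, Wdr75, Ftsj3 and Nop2, at 0.25 ± 0.08 to 0.50 ± 0.14. Ddx21, Bop1, Bysl, Rrp12 and Mybbp1a, which G-CSF had raised in marrow, had log2 differences of -0.09 ± 0.10, -0.02 ± 0.15, -0.17 ± 0.21, -0.02 ± 0.19 and -0.07 ± 0.09 in spleen against the same saline libraries, and none passed. The other marrow-raised factors that did not pass here had higher means in WT spleen than in WT saline marrow. These were Rrp1b (7.33 against 7.11 log2 CPM), Nolc1 (7.54 against 7.29), Noc4l (6.69 against 6.46) and Wdr43 (8.44 against 8.27). Scaled to the listed genes, which moved the median of all genes by -0.11 in this comparison, 8 of the 12 were past the threshold.

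In KO spleen against resting KO marrow limma called 0 factors, beside 6.28% of all genes in either direction (4.19% higher and 2.09% lower), and voom called 0. At an unadjusted p under 0.05 there were 3 factors, beside 2598 of 13586 genes. The median was 0.02 against -0.01 over all genes. Wdr75 read 6.19, 6.65 and 6.13 log2 CPM in KO saline marrow and 6.89, 6.45, 6.76 and 7.03 in KO spleen, which overlapped through 1 spleen library, a difference of 0.46 ± 0.15 (adjusted p = 0.0728). It passed with sample weights (adjusted p = 0.0327) and without KO saline replicate 2 or KO spleen replicate 2. Ftsj3 had 0.36 ± 0.14 (adjusted p = 0.159) and Nop14, a processome protein, -0.27 ± 0.12 (adjusted p = 0.225).

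Spleen and marrow HSCs of G-CSF-treated WT mice differed in 6 factors, all lower in spleen, beside 13.7% of all genes called, 6.82% lower and 6.92% higher. They were Ddx21 at -0.62 ± 0.11 (adjusted p = 0.0015), Bop1 at -0.73 ± 0.16 (adjusted p = 0.00569), Mybbp1a at -0.38 ± 0.09 (adjusted p = 0.0121), Bysl at -0.91 ± 0.23 (adjusted p = 0.0121), Rrp12 at -0.69 ± 0.21 (adjusted p = 0.0288) and Heatr1 at -0.50 ± 0.16 (adjusted p = 0.0386). For each of the 6 the 4 spleen libraries lay below the 3 marrow libraries. The 6 were called on these same libraries, so the separation adds no support to the calls. This comparison shares the 3 WT G-CSF marrow libraries with that of G-CSF and saline, so the same libraries enter both sets of values. Over the 39 factors the median was -0.09 and 16 were above 0, Pes1 highest at 0.32 ± 0.17 (adjusted p = 0.212). Without WT G-CSF marrow replicate 1 the count was 2 and without replicate 3 it was 3, while Ddx21 and Bop1 held in each of the 7 omissions. When same-numbered libraries were treated as pairs, only Ddx21, Bop1 and Bysl passed. Whether such libraries came from the same animals is not given in the sources used here. In KO the comparison gave 0 calls by limma, beside 1.27% of all genes (0.95% higher and 0.317% lower), and 0 by voom or with sample weights. An unadjusted p under 0.05 was found for 3 factors, beside 1546 of 13586 genes. Nop58 read 8.57, 8.51, 8.54 and 8.50 log2 CPM in KO G-CSF marrow and 8.23, 8.19, 8.26 and 8.34 in KO spleen, without overlap, at -0.27 ± 0.08 (adjusted p = 0.131). Ltv1 had -0.31 ± 0.13 (adjusted p = 0.349) and Npm1 0.22 ± 0.10 (adjusted p = 0.421). The interaction of genotype and tissue called 0 factors and 0.0% of all genes, with 0 factors by voom or with sample weights. An unadjusted p under 0.05 was found for 8 factors, beside 1759 of 13586 genes. The values of smallest p were 0.55 ± 0.15 (adjusted p = 0.281) for Ddx21, 0.39 ± 0.13 (adjusted p = 0.285) for Mybbp1a and 0.77 ± 0.31 (adjusted p = 0.317) for Bysl.

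**Figure D4:**
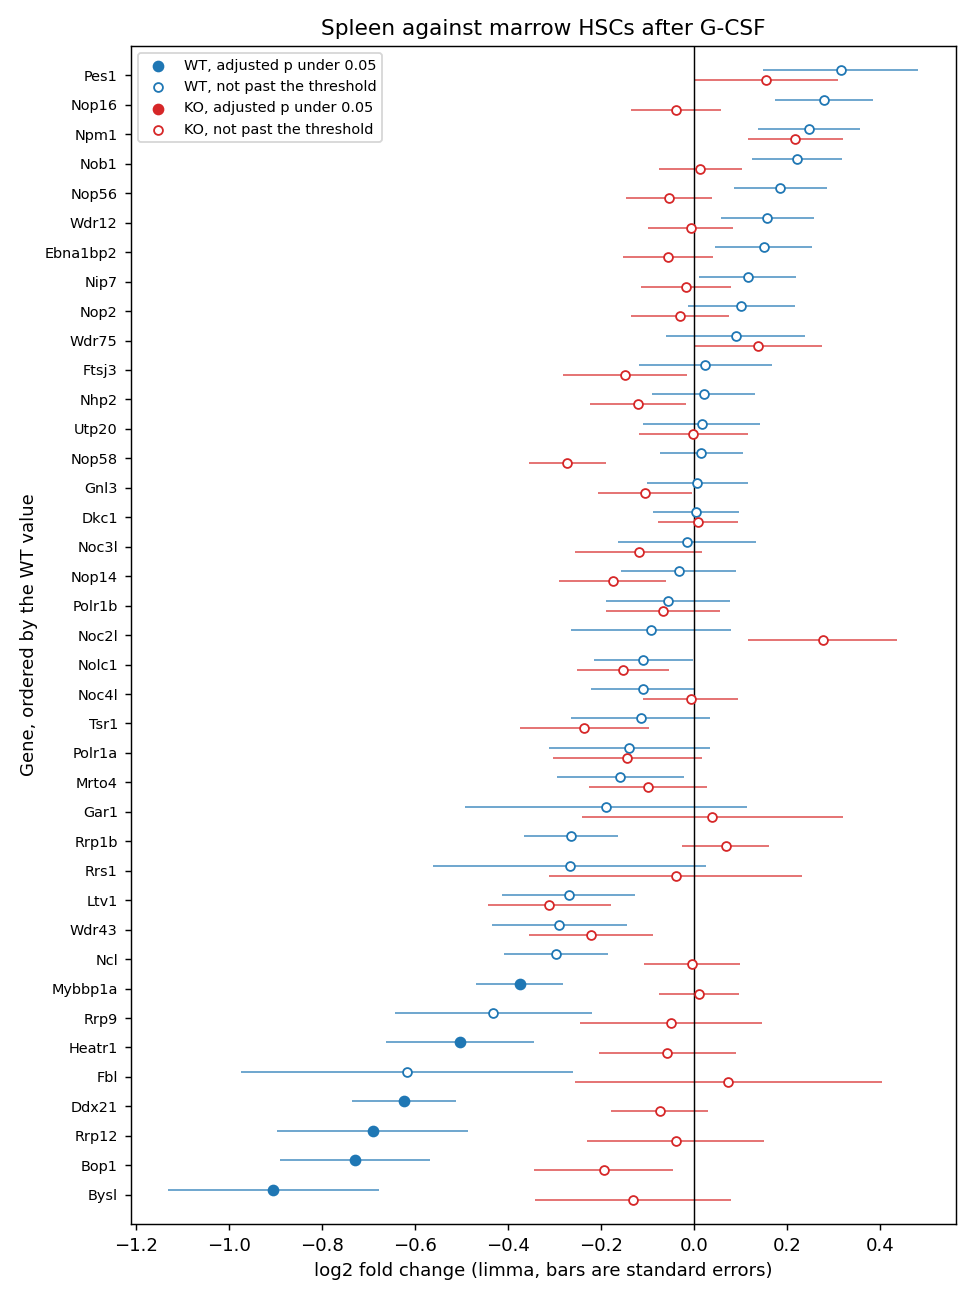
Log2 fold change of each of the 39 factors in spleen against marrow HSCs after G-CSF, for WT (blue) and KO (red), with standard errors as bars and filled points for an adjusted p under 0.05. In WT 6 points are filled, all to the left of 0, and in KO none is.

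KO and WT HSCs were compared in 3 settings, and limma called 0 of the 39 factors in each. In saline marrow 0.00736% of all genes passed, 3 factors beside 511 of 13586 genes had an unadjusted p under 0.05, and voom and sample weights called 0 factors. Pes1 was highest, with each KO library above each WT library, at 0.62 ± 0.17 (adjusted p = 0.852), then Nhp2 at 0.26 ± 0.11 (adjusted p = 0.9998) and Nop58 at 0.19 ± 0.09 (adjusted p = 0.9998). In G-CSF marrow 0.147% of all genes passed (0.125% higher and 0.0221% lower), and 0 factors passed by voom or with sample weights. There 8 factors beside 1739 of 13586 genes had an unadjusted p under 0.05. The median was -0.12 and 9 of 39 values were above 0. Ddx21 was lower in each of the 4 KO libraries than in each of the 3 WT libraries, at -0.41 ± 0.11 (adjusted p = 0.147), as was Rrp1b at -0.34 ± 0.10 (adjusted p = 0.184), and Pes1 had -0.49 ± 0.17 (adjusted p = 0.242) with overlap. Without WT G-CSF marrow replicate 2, the lowest WT library for Ddx21, that gene passed at adjusted p = 0.04997. In spleen 0.0147% of all genes passed, 11 factors beside 1598 of 13586 genes had an unadjusted p under 0.05, and voom called 0 factors. Pes1 was lower in each KO than in each WT library, at -0.65 ± 0.15 (adjusted p = 0.135). Nop16 read 8.02, 7.51, 7.69 and 7.86 log2 CPM in KO spleen, below each WT spleen library, at -0.37 ± 0.10 (adjusted p = 0.165), and Nob1 had -0.26 ± 0.09 (adjusted p = 0.267) with overlap. With sample weights Pes1 and Nop16 passed, at adjusted p = 0.00651 and 0.0441, and the share of all genes called with these weights is not given here. In the authors' deposited table, which holds 4 comparisons, Pes1 (log2 fold change -0.72, adjusted p = 0.00629) and Nop16 (-0.32, adjusted p = 0.0335) were the 2 factors lower in KO spleen at an adjusted p under 0.05. The authors' table and the weighted fit rest on the same spleen libraries, so they are not separate evidence. The authors' deposited table had 17 factors higher in WT spleen than in resting WT marrow, 1 in KO (Wdr75) and 0 different between genotypes in saline marrow. The share of all genes past the threshold in the authors' table was not counted here, so these counts have no background beside them.

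Other genes of the pathway, 125 in lists of Pol I, small-subunit, large-subunit, snoRNP and rRNA trimming factors outside the set, were counted in the same fits. In WT marrow G-CSF raised 12 of the 125 and lowered 0, with a median of 0.20, beside 5.62% of all genes raised and 5.62% lowered. In KO marrow it raised 2 and lowered 0, with a median of 0.06, beside 5.57% raised and 4.3% lowered. Among the 3 genes of smallest p in each list, those past the threshold in WT were Mphosph10 (U3 snoRNP, 0.52 ± 0.11 in WT), Pno1 (late small subunit, 0.90 ± 0.19), Tbl3 (processome, 0.49 ± 0.12), Mak16 (large subunit, 0.43 ± 0.08), Ddx56 (a helicase, 0.41 ± 0.10), Brix1 (large subunit, 0.31 ± 0.09), Polr1e (a Pol I subunit, 0.47 ± 0.15) and Exosc5 (exosome, 0.37 ± 0.12). The leading genes that did not pass were Cd3eap (0.33 ± 0.12 (adjusted p = 0.0709)) and Rrn3 (0.18 ± 0.10 (adjusted p = 0.286)) of the Pol I machinery and Exosc9 (0.28 ± 0.10 (adjusted p = 0.067)) and Exosc1 (0.28 ± 0.10 (adjusted p = 0.0695)) of the exosome. Of the 10 other snoRNP factors 0 passed and 0 had an unadjusted p under 0.05, beside 3283 of 13586 genes. They were led by Tcof1 (0.33 ± 0.16 (adjusted p = 0.212)), Ruvbl2 (0.20 ± 0.13 (adjusted p = 0.387)) and Nufip1 (0.19 ± 0.21 (adjusted p = 0.628)). In KO Mphosph10 passed at 0.34 ± 0.11 (adjusted p = 0.044). In WT spleen against resting marrow 32 of the 125 were higher and 6 lower, beside 11.7% and 9.4% of all genes. Against G-CSF marrow 10 were higher and 22 lower, beside 6.92% and 6.82% of all genes, the latter including 10 of the 47 large-subunit genes and 7 of the 41 small-subunit genes. Tcof1, which encodes treacle, a cofactor of Pol I, was lower in WT spleen than in WT G-CSF marrow, with a log2 difference of -0.86 ± 0.16 (adjusted p = 0.00221).

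Genes of the finished ribosome were counted beside them, and the shares over all genes are 5.62% raised and 5.62% lowered in WT marrow, 5.57% and 4.3% in KO marrow, and 11.7% and 9.4% in WT spleen against resting marrow. Of 82 cytosolic ribosomal protein genes 1 rose and 1 fell with G-CSF in WT marrow, with a median of 0.01, and 0 passed in KO, with a median of -0.18. Those 2 were Rpl36al (0.48 ± 0.13) and Rps13 (-1.13 ± 0.35). Of 74 mitochondrial ribosomal protein genes 4 rose in WT marrow (median 0.12) and 24 were higher and 2 lower in WT spleen than in resting marrow (median 0.23), Mrpl36 among them at 0.45 ± 0.09. Many ribosomal protein genes have near-identical processed pseudogenes that can share their reads.

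Myc and the cell-cycle genes are given because their products are known to go with ribosome building. Myc read 8.39, 8.67, 9.02 and 9.12 log2 CPM in WT saline marrow, 9.22, 9.06 and 9.20 in WT G-CSF marrow and 7.75, 8.08, 8.28 and 8.14 in WT spleen. In KO it read 8.64, 9.03 and 8.93 in saline marrow, 9.10, 8.99, 8.74 and 8.77 in G-CSF marrow and 8.46, 7.79, 8.14 and 8.19 in spleen. Each of the 8 spleen libraries lay below each of the 7 G-CSF marrow libraries. Myc was lower in spleen than in G-CSF marrow, with log2 differences of -1.10 ± 0.16 (adjusted p = 0.000309) in WT and -0.75 ± 0.15 (adjusted p = 0.011) in KO. After G-CSF in marrow its change was 0.36 ± 0.16 (adjusted p = 0.176) in WT and 0.03 ± 0.16 (adjusted p = 0.932) in KO. Its antagonists Mxi1 and Mxd1 fell in WT marrow after G-CSF, with log2 fold changes of -0.70 ± 0.19 (adjusted p = 0.016) and -0.56 ± 0.17 (adjusted p = 0.0329). Of 22 G2/M genes 1 rose (Bub1) and 1 fell (Kif23) with G-CSF in WT marrow and 16 rose in KO marrow, beside 5.62% of all genes in each direction in WT and 5.57% raised in KO, and their summed level was 1695 to 2321 CPM in WT and 2717 to 3292 in KO G-CSF marrow. Multipotent progenitor markers rose in 7 of 7 genes with G-CSF in marrow of each genotype, beside 5.62% of all genes in WT and 5.57% in KO. The part of Myc, of cycling cells or of multipotent progenitors in the factors' levels was not tested.

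**Figure D5:**
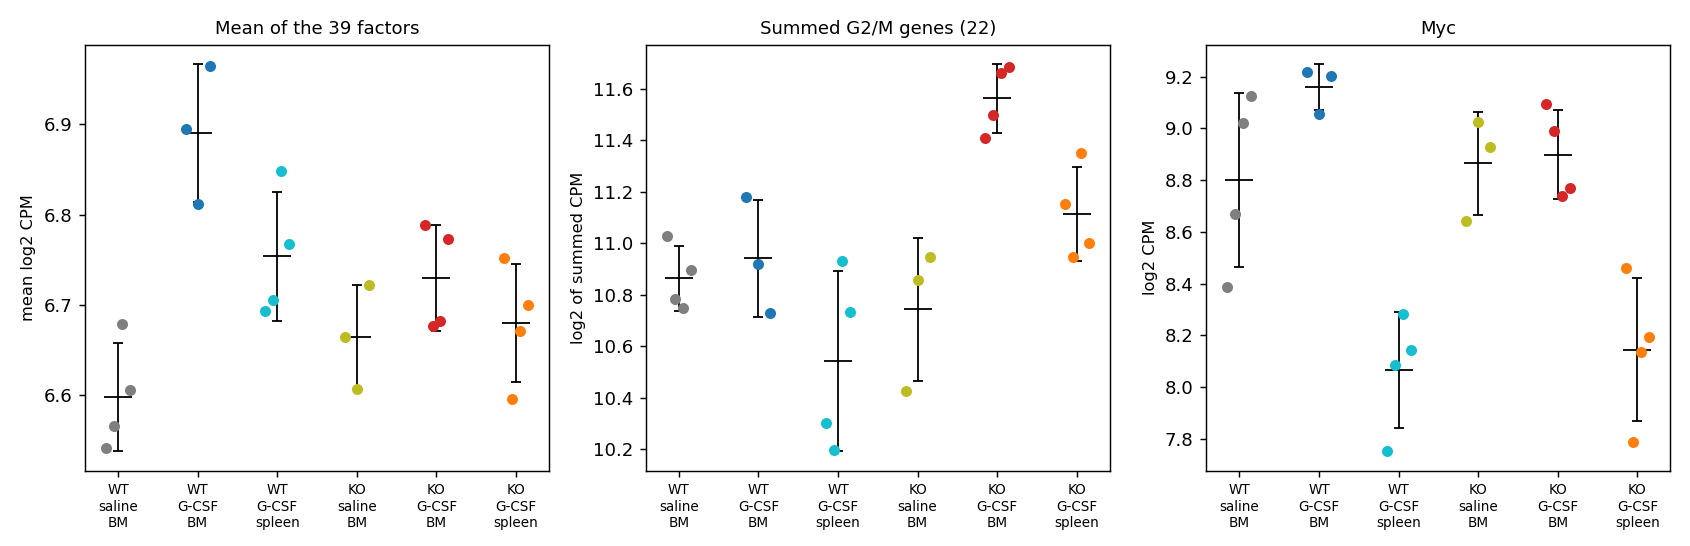
Mean log2 CPM of the 39 factors, log2 of the summed CPM of 22 G2/M genes and log2 CPM of Myc in each library (points), by group. The 3 WT G-CSF marrow libraries have a mean of the factors of 6.81 to 6.96, which overlaps only WT spleen at 6.69 to 6.85, the G2/M sum is highest in the 4 KO G-CSF marrow libraries, and the group means of Myc are lowest in both spleen groups.

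Base composition, transcript length and gene overlap of the factors were set beside their fold changes. Across the 39 factors the log2 difference of KO from WT in G-CSF marrow fell with the GC content of their transcripts (Spearman rho = -0.51, as against -0.19 across all genes), and the difference of WT spleen from WT G-CSF marrow did so with rho = -0.38 (-0.12 across all genes). For G-CSF in WT marrow it was 0.13, and for the interaction of genotype and G-CSF -0.51 (-0.16 across all genes). With transcript length rho was 0.18 across the factors for G-CSF in WT marrow (-0.08 across all genes), 0.42 for G-CSF in KO marrow (0.0015), -0.06 for WT spleen against resting marrow (-0.24), -0.17 for WT spleen against G-CSF marrow (-0.19) and 0.41 for KO against WT in spleen (0.33). These are descriptions across genes of the same libraries, and the parts of GC content and length were not tested. Exons of 17 factors overlap an exon of a gene on the opposite strand, and the use of strand in counting is not given in the sources used here. In WT marrow the partner of Bop1, Mroh1, had a log2 fold change of -0.02 ± 0.14, that of Bysl, Ccnd3, 0.28 ± 0.15, that of Nhp2, Rmnd5b, 0.13 ± 0.15, that of Rrp1b, Hsf2bp, 0.45 ± 0.32, and that of Mybbp1a, Spns2, -0.46 ± 0.18. None of these 5 passed, whereas Lgals8, which overlaps Heatr1, rose by 0.35 ± 0.11. Gnl3, Ncl, Nop56 and Nop58 hold annotated small nucleolar or micro RNA genes on their own strand, and Mrto4 has named pseudogenes, so their values are less certain.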

How the data were processed

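RNA had been extracted from sorted HSCs and amplified with a SMARTer Ultra Low RNA kit, per the labels' protocols. Build mm10 and the tools limma, edgeR, Salmon 0.8.2, STAR 2.5.1a, bcl2fastq and featureCounts 1.4.6-p5 of Subread are listed in the submitters' processing notes, without their roles. Whether strand was used in counting is not given in the sources used here. The authors deposited log2 values per library and, for 4 comparisons, log2 fold changes and adjusted p-values. The deposited log2 values proved to be log2 of (reads + 0.5) per 1000000 of an effective library size that was 0.938 to 1.056 times the reads in the listed genes. Whole reads came out for 100.0% of values within a tolerance of 0.05. A log2 fold change on this scale understates the change of genes with few reads.

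From the 13645 lines, 51 identical repeats were dropped, which left 13594 genes, and 19 symbols turned into dates were looked up by identifier. Replicates were compared in 30 pairs within groups, where the mean chi-square per gene was 21.7 to 91.6, so no pair of replicates differed by as little as sampling noise. Genes above 1 CPM in at least 3 libraries (13586) entered 1 limma fit (R 4.3.3, limma 3.58.1) over 22 libraries with a mean per group, a trended variance prior and 16 residual degrees of freedom, and 11 comparisons were read from it with Benjamini-Hochberg adjustment over all genes tested and a threshold of 0.05. The fit was also run on simulated reads with changes in WT G-CSF marrow alone, and the outcome is not given here. A count model had been planned as an alternative and was not run, since the deposited unit is not counts. Limma's voom on the recovered reads and limma with sample weights were added after the data were seen. The factors and gene lists were chosen with earlier results of these data known, so no list test or p over the list is given.

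The genes named in full were the factor of smallest p per role in WT marrow, the 3 largest and 3 smallest changes there, up to 5 factors past the threshold in each other comparison (or the 3 of smallest p), and the 3 leading genes by p of each further list, of which some are left out. Heatr1 in spleen, the overlap partners and the 6 upstream sequences were picked after values were seen. Positions and overlaps come from GENCODE M21 on GRCm38, and upstream sequences from RefSeq on GRCm38.p6, matched by symbol for 34 factors. Tables and figures used Python 3.11.15, pandas 2.3.3, NumPy 2.4.6, SciPy 1.17.1 and matplotlib 3.10.9.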

Additional observations from a re-analysis of the deposited data

Results flagged for a closer look

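Single libraries stood apart within their group of 4 in 5 of the 96 cases tested by Dixon's ratio of the gap to the range (critical value 0.829 for 4 libraries), a test that chance passes in about 1 of 20 groups. Rrp12 in WT spleen replicate 3 lay at 6.04 log2 CPM against 5.47 to 5.51 in the others. Mybbp1a in the same library lay at 8.50 against 8.21 to 8.24. Rrp1b in WT spleen replicate 4 lay at 7.43 against 7.29 to 7.31. Nop56 in WT saline marrow replicate 4 lay at 8.99 against 9.16 to 9.18, and Mybbp1a in WT saline marrow replicate 3 at 8.47 against 8.33 to 8.33. The response of Pes1 to G-CSF in marrow differed between genotypes by -1.11 ± 0.24 on the log2 scale in limma's interaction term (unadjusted p = 9.91e-05), and this does not pass after adjustment over all genes (adjusted p = 0.260).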

How the results depend on the processing

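Counts of factors past the threshold moved by more than 1.5 times in these cases. For G-CSF in WT marrow (12 calls) scaling to the listed genes gave 5, and leaving out 1 library gave 4 to 13. For G-CSF in KO marrow (2 calls) the compared groups alone gave 0, and leaving out 1 library 0 to 3. For WT spleen against G-CSF marrow (6 calls) the replicate block gave 3 (Ddx21, Bop1 and Bysl), and leaving out 1 library 2 to 8. For KO spleen against resting KO marrow (0 calls) sample weights gave 1 and leaving out 1 library 0 to 1. For KO against WT in spleen sample weights gave 2, and in G-CSF marrow leaving out 1 library gave 0 to 1, as for the interaction of genotype and G-CSF. WT spleen against resting marrow gave 9 to 12 with 1 library left out. Scaling to the listed genes moved every gene of G-CSF in WT marrow by the same -0.075 (log2), which by construction turned the sign of Npm1 (-0.037), Gar1 (-0.036) and Rrs1 (-0.014). The sign also turned with 1 library left out for Gar1 (-0.048 to 0.157) and Rrs1 (-0.114 to 0.349). The cause of the turns with a library left out, and of the changed counts, was not tested. Same-numbered libraries deviated from their group means with correlations of -0.07 to 0.15 in 30 pairs, and the numbers were not taken as pairing in the main fit. Low correlations cannot exclude that such libraries came from the same animals. With the replicate block G-CSF in WT marrow gave 9 calls. Removing the filter, log2(CPM + 1) and voom changed no count of factors. A count model planned as an alternative, with a second tool's size factors, was not run because the deposited values are logs. Fbl, Gar1 and Rrs1 had the fewest reads, 50 to 412.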
